A study of Arabidopsis thaliana with 69 samples.

Results

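The plastid genome of Arabidopsis thaliana encodes, beside subunits of the photosynthetic machinery, a set of genes that serve its own expression and upkeep. They were taken here by symbol, in lower case as the annotation writes it: every symbol that starts with rpl, rps, rpo or ycf, and clpP, matK, accD, ccsA and cemA. Of the 13513 probe sets on the array that named 1 gene, 26 met the rule, each for a different gene, and all 26 lay on the plastid genome by their match to RefSeq (assembly TAIR10.1). There were 7 genes of the large ribosomal subunit, 8 of the small subunit, 4 of the RNA polymerase and 7 others. The others were matK, clpP, accD, ccsA, cemA, ycf3 and ycf4, not all of which serve gene expression. The genes of the large subunit were rpl14, rpl16, rpl20, rpl22, rpl32, rpl33 and rpl36. The genes of the small subunit were rps2, rps3, rps4, rps14, rps15, rps16, rps18 and rps19. A further 7 probe sets stood for 6 genes that lie in more than 1 copy (rpl2, rpl23, rps7, rps12, ycf1 and ycf2) and were kept apart. One mitochondrial probe set named both rps3 and rpl16, and 5 probe sets also named a nuclear locus. These were not members, so no mitochondrial gene was among the 26.

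The samples were liquid cultures of Col-0 seedlings, grown for 6 days in the dark with sucrose. One line carried VND7-VP16-GR behind the 35S promoter, which is active in most cell types. VND7 is a transcription factor that specifies xylem vessels, VP16 is an activation domain, and GR is the receptor part that lets dexamethasone (DEX) move the protein into the nucleus. Cultures received 10 µM DEX or its solvent DMSO, were collected at 1, 3, 6, 9, 12, 24, 30 and 48 h, and gave 3 arrays per treatment and time, with 3 more DMSO arrays at 0 h. A second line with VP16-GR and no VND7 received either treatment for 9, 12 or 24 h, to show what DEX did without VND7. Both lines shared the Col-0 background, the VP16-GR part and the dark culture. The labels name hypocotyl as the tissue, while the protocol describes the harvest of whole flasks with no dissection, so that each sample pools many seedlings. No marker list for hypocotyl was used. The mean of the 2 measured root hair markers, EXPA7 and EXPA18, was 3.29 to 4.33 on the log2 scale in 23 DMSO arrays of the VND7 line that resembled their own treatment.

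Plastid genes are transcribed by a bacterial-type RNA polymerase, whose core subunits are the products of rpoA, rpoB, rpoC1 and rpoC2, and by phage-type polymerases imported from the nucleus. The bacterial-type enzyme serves most photosynthesis genes and needs nuclear sigma factors. The phage-type enzymes are known for their part in transcribing housekeeping genes such as accD and the operon of rpoB, rpoC1 and rpoC2. Plastid mRNAs are translated on bacterial-type ribosomes whose proteins come in part from the plastid genome and in part from the nucleus. In darkness the plastids of seedlings are etioplasts, which lack chlorophyll but keep this machinery.

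All values are log2 signals of 1 probe set per gene, and changes are differences of log2 signals, DEX minus DMSO, with the standard error (SE) of the fit. A change was called when limma's adjusted p was under 0.05 and its size at least 1. Levels are compared within a probe set only. In bulk samples, fewer cells of a type and less RNA per cell cannot be told apart. The signal of rps14 was at the floor of the values on 61 of 69 arrays, less than 0.3 above 2.14, and rpoB was dim, with a mean of 3.29. Both therefore carry little information on a change. The other 24 members had means from 6.69 to 12.60.

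In 10 arrays of the VND7 line the whole profile went with the other treatment label, by correlation with the arrays of each label or by the 3 closest arrays. With a DMSO label these were replicate 3 of 0 h, replicate 2 of both 1 h and 6 h, and replicate 1 of 24 h. With a DEX label they were all 3 replicates of 48 h, replicate 2 of 24 h, and replicates 2 and 3 of 1 h. The median of the 26 members in an array was 9.46 to 11.12 in the line's remaining 23 arrays with a DMSO label. It was 7.65 to 8.69 in the 5 DEX arrays in place at 24 and 30 h. In 3 of the 4 arrays out of place with a DMSO label it was as low, at 7.55 (1 h), 7.56 (6 h) and 6.69 (24 h). The mean of the 4 measured xylem markers in those 3 was 9.39 to 9.69, against 4.09 to 4.63 in the 23. The array at 0 h had a member median of 10.53, within the DMSO range. Of the 6 out of place with a DEX label, 5 had a member median of 9.62 to 10.43, also within that range, and 1 h replicate 2 lay between at 8.74. Results are given with all arrays and again without the 10. The 10 were chosen from the same values and leaving them out raises the number of DEX differences by construction.

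**Figure D1:**
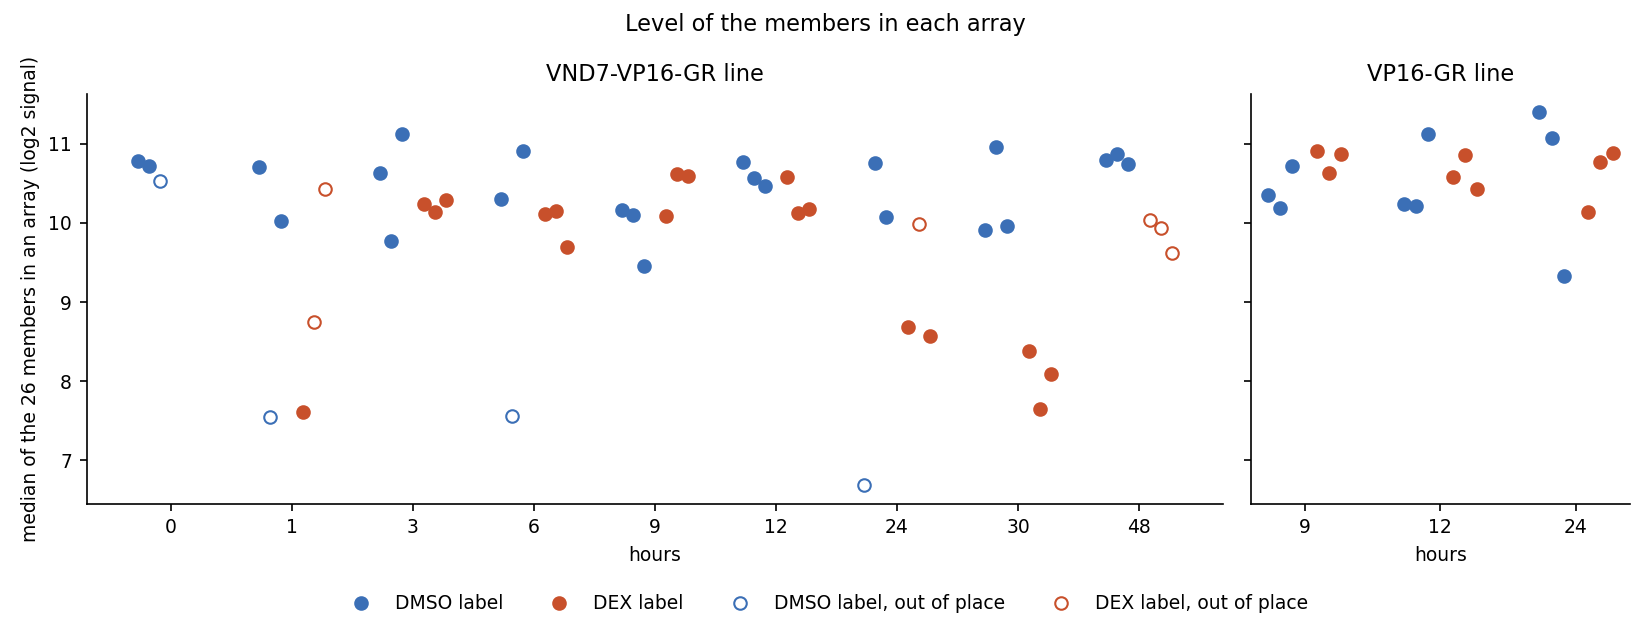
Median log2 signal of the 26 members in each of the 69 arrays (vertical axis) by hours after treatment (horizontal axis), in the VND7-VP16-GR line (left) and the VP16-GR line (right). Each point is 1 array, blue for DMSO and orange for DEX, and open points are the 10 arrays out of place. Filled DEX points at 24 and 30 h lie at 7.65 to 8.69, below the filled DMSO points of the line at 9.46 to 11.12.

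At 30 h of DEX 18 of the 26 members fell, 8 did not pass the test and none rose. Over all 22746 tested probe sets 28.0% were called at 30 h, 15.2% as falls. The 3 DEX arrays lay below all 3 DMSO arrays for 19 members, as they did for 25.8% of all probe sets. The median change of the members was -1.85, with a range from -3.69 to 0.02, while the median of all tested probe sets was 0. Without the 10 arrays, none of which is from 30 h, the fit had a smaller spread and called 19 members, with 29.6% of all probe sets called. Arrays were also centred on the mean of the other organelle genes, 43 plastid photosynthesis and 10 mitochondrial respiration genes. In that setting 7 falls and 2 rises were called and the median was -0.47. The count also rested in part on 2 arrays: 7 members were called without DMSO replicate 2 and 8 without DEX replicate 2.

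Among the large-subunit genes 5 of 7 fell at 30 h, with a median change of -2.18. The largest fall was that of rpl33, which encodes a small protein of the large subunit. Its signal was 11.73, 11.69 and 11.82 in the DMSO arrays and 8.33, 7.76 and 8.09 in the DEX arrays. All 3 DEX arrays were far below all 3 DMSO arrays, and the change was -3.69 ± 0.94 (SE, limma adjusted p = 0.00185), or 12.9-fold. The genes rpl36, rpl22, rpl16 and rpl14 encode further proteins of this subunit. The change was -2.88 for rpl36, -2.81 for rpl22, -2.18 for rpl16 and -1.98 for rpl14. For rpl32 it was -0.73 and for rpl20 it was -0.48, neither of which passed the test, and their DEX and DMSO arrays overlapped.

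Of the 8 small-subunit genes 6 fell, with a median of -1.84 over the 8. The signal of rps18, the neighbour of rpl33 on the plastid genome, was 10.30, 9.76 and 10.09 with DMSO and 6.93, 6.59 and 6.91 with DEX. The 3 DEX arrays lay close together and well below the DMSO arrays, with a change of -3.24 ± 0.79 (SE, limma adjusted p = 0.00128). The gene rps16 changed by -2.66, and in DEX replicate 2 its signal was 2.93 against 5.001 and 5.18 in the other 2 arrays. The changes of rps19, rps2, rps4 and rps3 were -2.28, -1.92, -1.76 and -1.75. The adjusted p of rps4 was 0.0498, just inside the threshold. For rps15 the change was -0.71 with overlapping arrays, and rps14 stayed at the floor in all 6 arrays.

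Of the 4 polymerase genes rpoC1 and rpoA fell and 2 did not pass the test. The alpha subunit gene rpoA gave 12.23, 12.52 and 12.33 with DMSO and 11.12, 10.17 and 10.44 with DEX. Its groups did not overlap, with a change of -1.78 ± 0.41 (SE, limma adjusted p = 7.7e-04). For rpoC1, which encodes the beta' subunit, the signals were 8.27, 9.39 and 8.36 with DMSO and 6.12, 5.67 and 4.83 with DEX, a change of -3.13 ± 0.98. The gene next to it, rpoC2, encodes the beta'' subunit and gave 6.06, 7.71 and 6.97 with DMSO and 5.66, 5.91 and 5.43 with DEX. Its DEX arrays were also all below its DMSO arrays, but the gap was small and the change of -1.25 ± 0.58 had an adjusted p of 0.085. It was called when the 10 arrays were left out (adjusted p = 0.03). The beta subunit gene rpoB, the third of these neighbours, was dim on all arrays, at 3.19 with DEX and 3.21 with DMSO.

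Of the 7 other genes 5 fell. The intron maturase gene matK, whose product helps to splice plastid introns, gave 11.52, 12.22 and 11.83 with DMSO. With DEX it gave 9.58, 8.38 and 8.08. All DEX arrays were lower, replicate 1 the least, and the change was -3.17 ± 0.77 (SE, limma adjusted p = 0.00122). The genes ycf3 and ycf4, whose products assist the assembly of photosystem I, changed by -2.15 and -1.93. The envelope protein gene cemA changed by -1.65, and clpP, which encodes a subunit of the Clp protease, by -1.58. The change of accD, which encodes a subunit of the acetyl-CoA carboxylase of fatty acid synthesis, was -0.86, and that of ccsA, which serves the attachment of haem to cytochromes, was -0.93. Neither passed the test, and the arrays of the treatments overlapped for both.

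The 30 h changes can be set beside the order of the genes on the plastid genome. The 5 consecutive genes from rpl14 to rps19 (rpl14, rpl16, rps3, rpl22 and rps19) all fell, with changes from -2.81 to -1.75. The consecutive genes rpl33, rps18 and rpl20 had changes of -3.69, -3.24 and -0.48, the last of them not called. Among rps2, rpoC2, rpoC1 and rpoB, which follow one another, the changes were -1.92, -1.25, -3.13 and -0.02, the last at a dim probe set. The neighbours rpl32 and ccsA, at -0.73 and -0.93, were both short of the threshold. Differences between members were not tested.

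**Figure D2:**
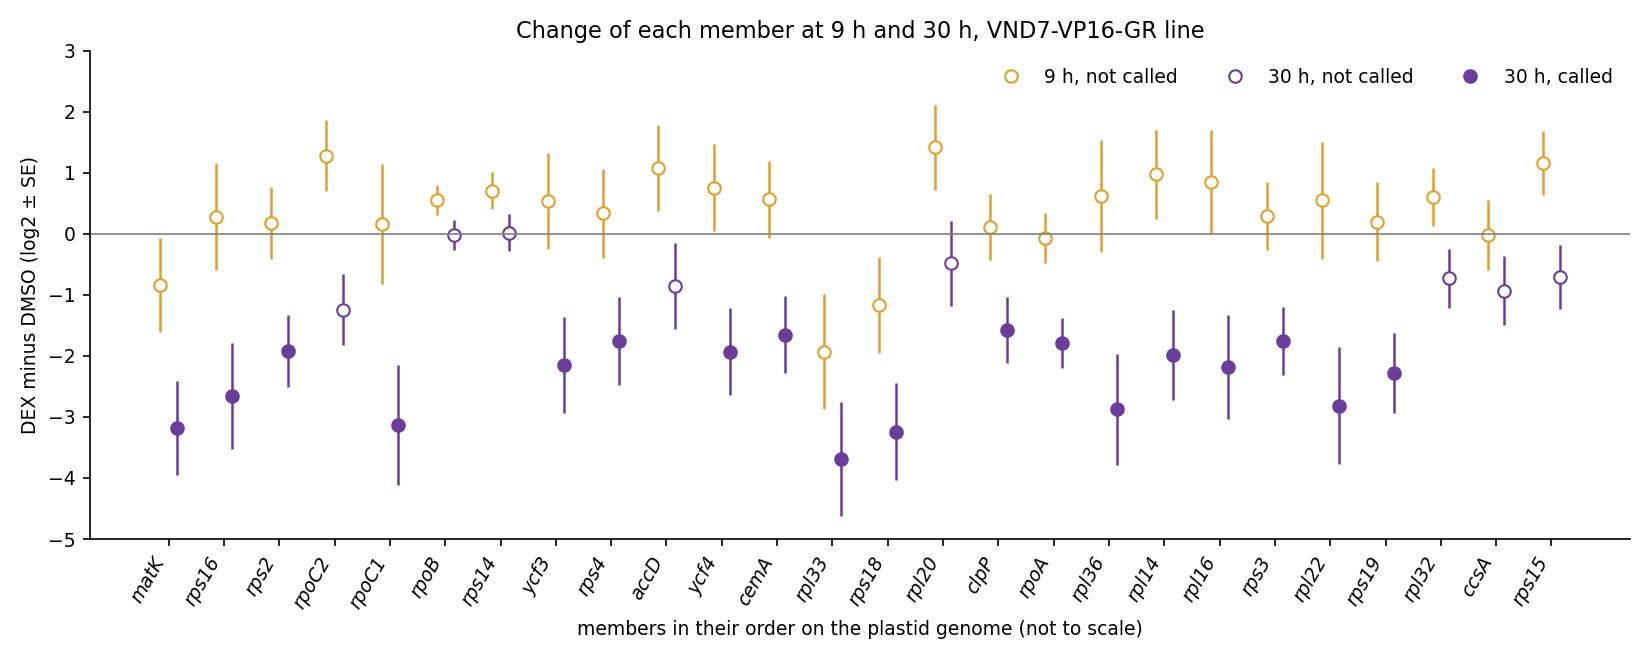
Change with DEX (log2, DEX minus DMSO, ± SE of the fit, 3 arrays per treatment) of each of the 26 members in the VND7-VP16-GR line at 9 h (yellow) and 30 h (purple), in their order on the plastid genome. Filled points were called. At 30 h 18 members were called, all falls, and at 9 h none was.

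No member was called between 3 and 12 h of DEX with all arrays in the fit, at times when 22.2% to 29.5% of all probe sets were. By time, 27.8% of all probe sets were called at 3 h, 22.5% at 6 h, 29.5% at 9 h and 22.2% at 12 h. Limma's unadjusted p was under 0.05 for 1 member at 3 h, 0 at 6 h, 6 at 9 h and 0 at 12 h. The median change of the members was -0.19 at 3 h, 0.49 at 6 h, 0.54 at 9 h and -0.23 at 12 h. With each array centred on its median, the medians were 0.39, 0.93, 1.09 and 0.26, and so turned sign at 3 and 12 h. That centring moved the median of all probe sets by 0.58, 0.43, 0.55 and 0.49 at these times.

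For some members the arrays of the treatments did not overlap at these times, although the changes were not called. At 9 h the signal of rpl33 was 12.00, 11.71 and 10.84 with DMSO and 9.60, 9.47 and 9.69 with DEX. The DEX arrays were tightly grouped below all DMSO arrays, and the change was -1.93 ± 0.94 (SE), with an adjusted p of 0.0946 that missed the threshold. Without the 10 arrays the same change was called (adjusted p = 2.1e-05). At 3 h rpl33 gave 11.75, 10.98 and 11.51 with DMSO and 9.75, 10.94 and 9.95 with DEX. The groups did not overlap, although DEX replicate 2 was close to DMSO replicate 2. At 12 h its change was -1.28, from 12.05, 11.89 and 12.03 with DMSO to 11.41, 9.46 and 11.24 with DEX, where DEX replicate 2 stood apart from the other 2.

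The signal of rps18 at 9 h was 10.35, 9.63 and 9.60 with DMSO and 8.73, 8.502 and 8.87 with DEX. These groups did not overlap either, with a change of -1.16 (adjusted p = 0.265, and 0.0112 without the 10 arrays). For matK the signals at 9 h were 11.84, 11.86 and 11.76 with DMSO and 10.78, 11.14 and 11.03 with DEX. These groups did not overlap, but the difference of -0.84 was under the minimum size and was not called in either fit. At 12 h matK gave 12.14, 12.01 and 12.03 with DMSO and 11.42, 10.36 and 11.41 with DEX, a change of -0.996 that was not called.

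Other members lay higher at 9 h. For rpoC2 the signals were 6.27, 6.31 and 6.03 with DMSO and 7.17, 7.51 and 7.77 with DEX. All DEX arrays were above all DMSO arrays, and the change was 1.28 ± 0.58 (SE), with an adjusted p of 0.0706 (0.0237 without the 10 arrays). The changes of rpl20, rps15 and accD were 1.42, 1.17 and 1.08 and were not called. By contrast rpoA gave 12.22, 12.28 and 11.95 with DMSO and 11.88, 12.27 and 12.08 with DEX at 9 h, a difference of -0.07 within the spread of the arrays.

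Without the 10 arrays 1 member was called at 3 h (rpl33), 2 at 6 h (matK and rpl33), 4 at 9 h and 2 at 12 h (rpl33 and rps18). At 9 h rpoC2 and rps15 rose and rpl33 and rps18 fell. At 6 h the median of the members turned from 0.49 to -0.40 when the library out of place, DMSO replicate 2, was left out. The shares of all probe sets called in that fit were 30.6% at 3 h, 30.7% at 6 h, 31.9% at 9 h and 26.2% at 12 h. The 9 h count also moved with the scaling. With array medians centred 8 members were called, all as rises, among them rpoC2, rpl20 and rps15. With each array centred on the other organelle genes 3 were called, all as falls: matK, rpl33 and rps18. The share of all probe sets called was not counted for either scaling, and median centring alone moved the median of all of them by 0.55.

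**Figure D3:**
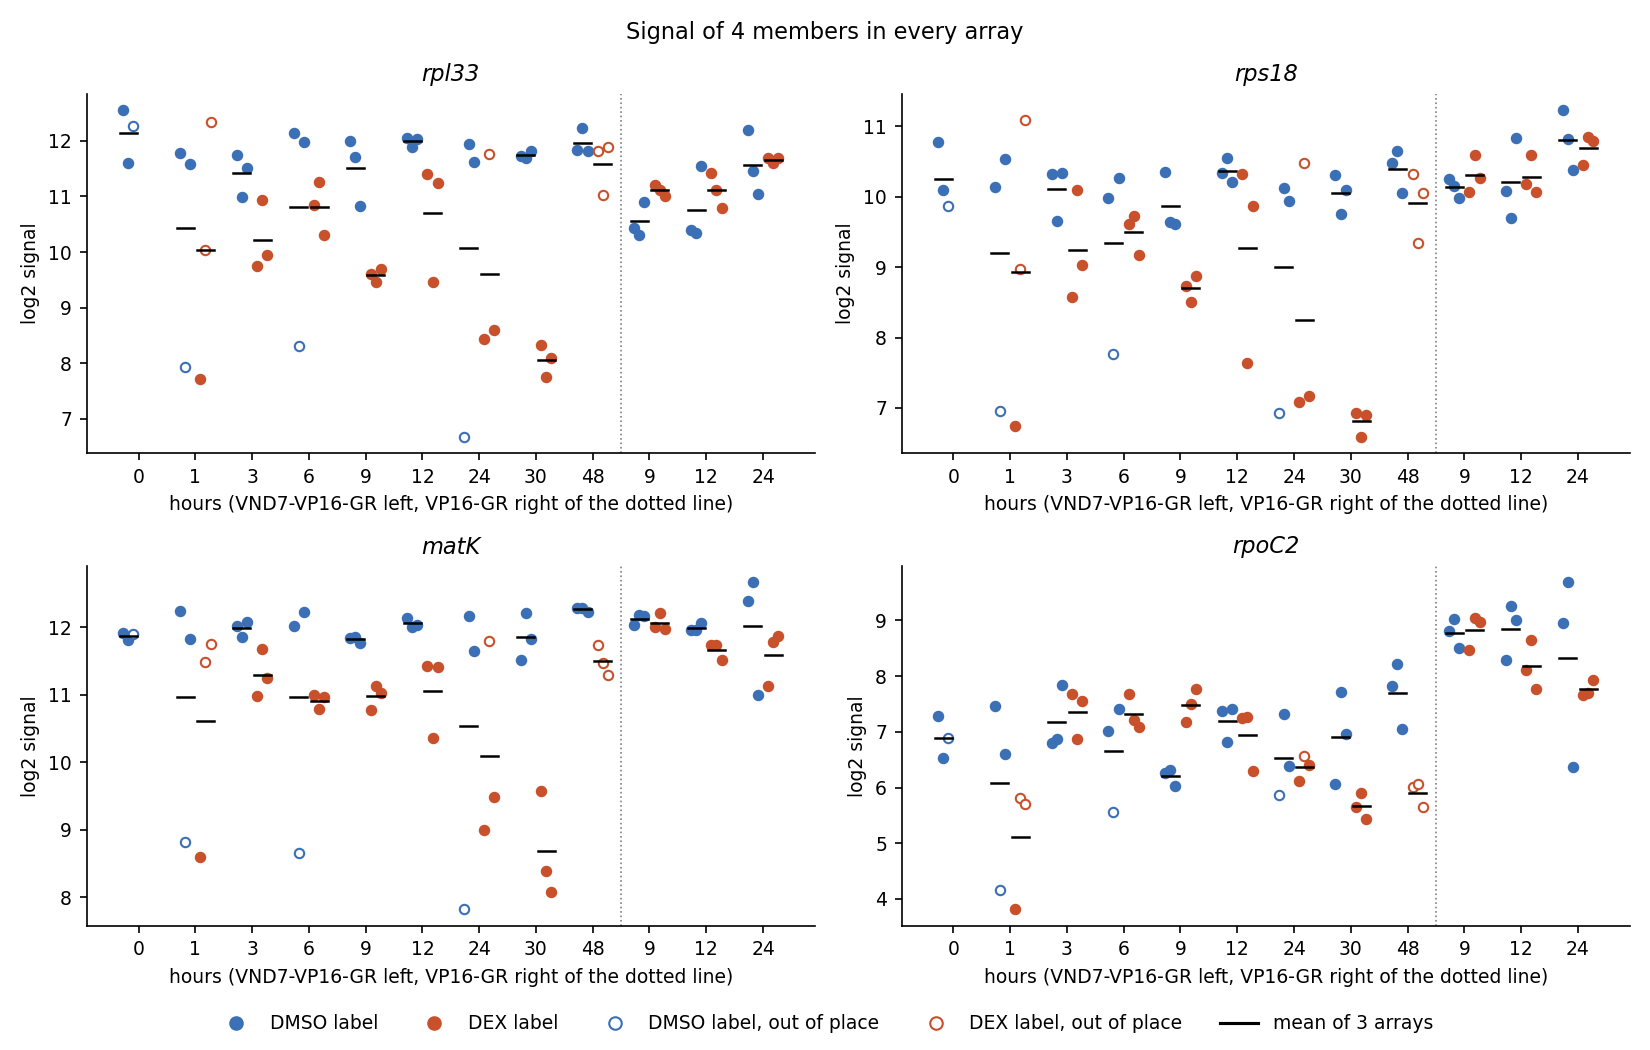
Log2 signal of rpl33, rps18, matK and rpoC2 (vertical axes) in every array, by hours after treatment, with the VND7-VP16-GR line left and the VP16-GR line right of the dotted line. Points are single arrays, blue for DMSO, orange for DEX and open where the array was out of place; black bars are means of 3 arrays. At 30 h the DEX arrays of rpl33 lie at 7.76 to 8.33 and the DMSO arrays at 11.69 to 11.82.

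The change of the DEX effect from 9 h to 30 h was negative for all 26 members, with a median of -2.09. It was likewise negative for all 43 plastid photosynthesis genes, with a median of -2.08 and 4 of them called. Among all 22746 tested probe sets it was negative for 12383 and positive for 10173. No member was called for it (18 had an unadjusted limma p under 0.05), with 4.46% of all probe sets called. For rpoC2, which lay higher at 9 h and lower at 30 h, it was -2.53 ± 0.82 (SE, adjusted p = 0.0526). For rpl36 it was -3.50 and for rpl22 it was -3.36, with adjusted p of 0.0959 and 0.136. Without the 10 arrays 21 members were called, all as falls, with 13.5% of all probe sets called. With the arrays of the compared groups alone in the fit 19 were called.

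The groups at 1, 24 and 48 h held 8 of the 10 arrays out of place. At 24 h no member was called with all arrays (0 with an unadjusted p under 0.05; 4.35% of all probe sets called), and the median change was 0.08. The signal of rpl33 was then 6.67, 11.94 and 11.61 in the libraries labelled DMSO and 8.44, 11.76 and 8.60 in those labelled DEX. The low DMSO array and the high DEX array were the 2 out of place. The same DMSO array was likewise low for rps18 at 6.93, for matK at 7.82 and for rpoA at 10.01. Without these arrays 15 members were called at 24 h, all as falls, with 30.4% of all probe sets called and a median of -1.18. The change of rpl33 was then -3.26 and that of matK -2.67, each from 2 arrays per treatment.

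At 1 h no member was called (1 had an unadjusted p under 0.05), with 0.0132% of all probe sets called. The signals of rpl33 were 11.78, 7.93 and 11.59 in the libraries labelled DMSO and 7.72, 10.03 and 12.35 in those labelled DEX. Each treatment held a low and a high array. The 1 DEX array left after the exclusion, replicate 1, had a member median of 7.62 and a xylem marker mean of 11.28, near those of the 30 h DEX arrays.

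At 48 h no member was called either (3 had an unadjusted p under 0.05), with 0.00440% of all probe sets called. All 26 changes were below 0, with a median of -0.82. So were those of 41 of the 43 plastid photosynthesis genes, with a median of -0.76. Of all probe sets 9253 had a change above 0 and 9103 below. For rpoC2 the signals were 7.83, 8.21 and 7.05 in the libraries labelled DMSO and 6.01, 6.06 and 5.66 in those labelled DEX. These did not overlap, and the change of -1.79 had an adjusted p of 0.398. For matK the libraries labelled DEX, at 11.74, 11.47 and 11.30, were also all below those labelled DMSO, at 12.29, 12.29 and 12.22. The xylem marker mean in the libraries labelled DEX 48 h was 4.52 to 4.70, near that of the DMSO arrays in place. Between 0 and 48 h of DMSO no member was called (0 with an unadjusted p under 0.05; 0% of all probe sets called), and the median difference was 0.13.

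**Figure D4:**
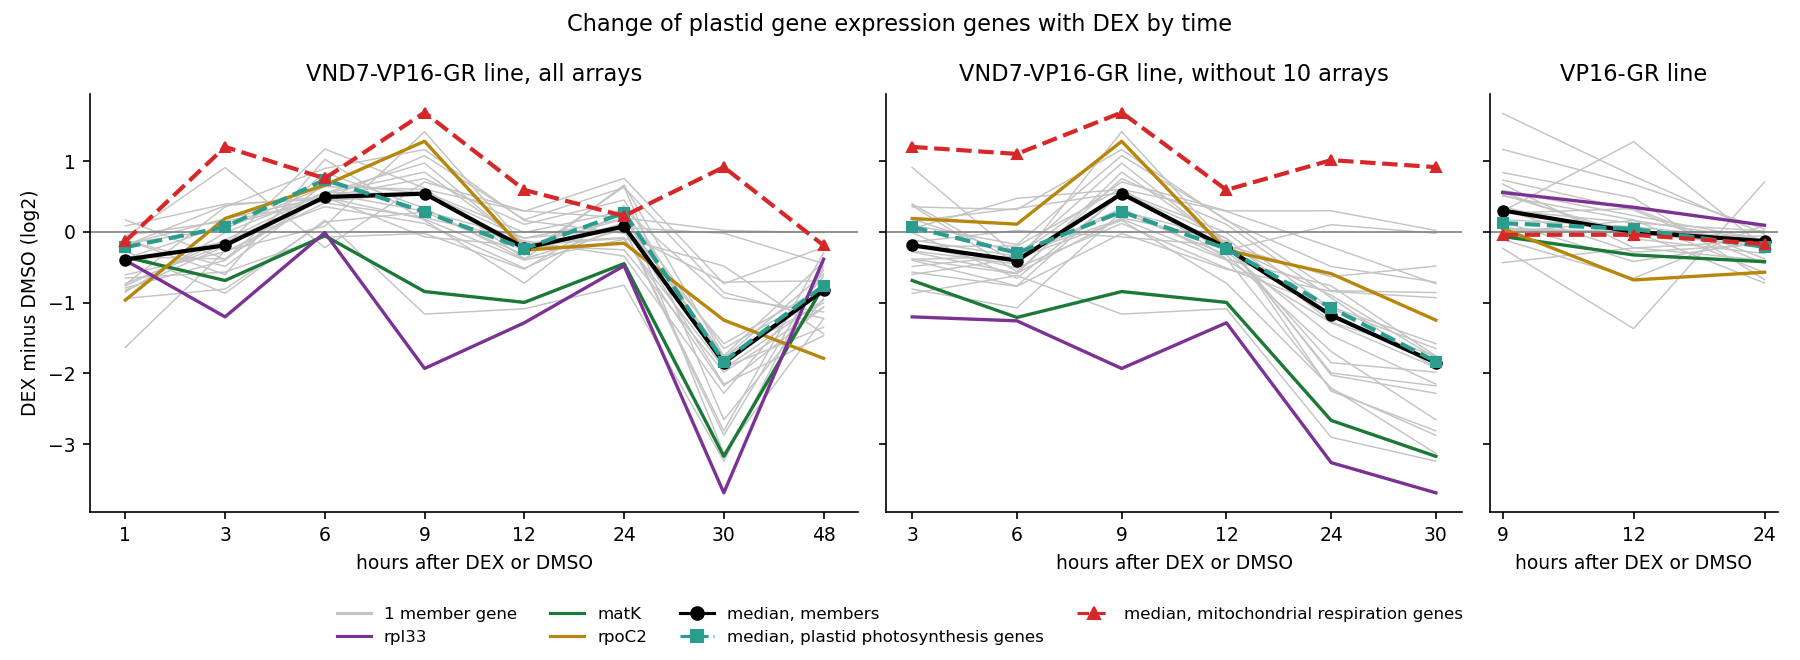
Change with DEX (log2, DEX minus DMSO) by hours after treatment in the VND7-VP16-GR line with all arrays (left), without the 10 arrays out of place (middle) and in the VP16-GR line (right). Thin lines are the 26 members, with rpl33, matK and rpoC2 coloured, and thick lines are medians of the members, of 43 plastid photosynthesis genes and of 10 mitochondrial respiration genes. At 30 h the medians are -1.85, -1.83 and 0.92 in that order.

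In the VP16-GR line no member was called at 9, 12 or 24 h of DEX. The shares of all probe sets called were 0.0835%, 0.0879% and 0.123%, and the counts of members with an unadjusted limma p under 0.05 were 0, 1 and 0. Median changes were 0.30, 0.00 and -0.13. The signal of rpl33 at 9 h was 10.44, 10.31 and 10.90 with DMSO and 11.21, 11.12 and 11.002 with DEX. Here the DEX arrays were all above the DMSO arrays, by 0.56, the opposite side from the VND7 line. For rps18 the 9 h signals were 10.25, 10.15 and 9.99 with DMSO and 10.06, 10.59 and 10.27 with DEX, which overlapped. The widest single differences were 1.67 for rpl36 at 9 h, -1.37 for ccsA at 12 h and 1.28 for accD at 12 h. Averaged over the 3 times no member was called (0 with an unadjusted p under 0.05; 0.220% of all probe sets called).

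The difference of the DEX effect between the lines was tested at the 3 shared times. No member was called at 9, 12 or 24 h, and none had an unadjusted limma p under 0.05. The shares of all probe sets called were 22.9%, 13.4% and 0.303%. The largest difference at 9 h was that of rpl33, -2.49 ± 1.33 (SE, adjusted p = 0.165). Without the 10 arrays 1 member was called at 9 h and 1 at 12 h, in both cases rpl33, and 8 at 24 h. The shares of all probe sets called were then 30.3%, 23.1% and 27.5%. The 8 at 24 h, all as falls, were matK, rpl33, rps18, rpl36, rps3, rpl22, rps19 and ccsA. Averaged over the 3 times no member was called (1 had an unadjusted p under 0.05; 22.0% of all probe sets called), and without the 10 arrays 6 were, all as falls (29.2% of all probe sets). No VP16-GR arrays were taken at 30 h, so the 30 h change has no such control.

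Averaged over the 8 times in the VND7 line, 1 member was called, with 19.8% of all probe sets called. This was rpl33, at -1.17 ± 0.33 (SE, limma adjusted p = 0.00204), which was -0.82 and no longer called with array medians centred. The averages of rps18 and matK were -0.96 and -0.92, with limma adjusted p of 0.00262 and 0.0033, and stayed under the minimum size. For rpoA the average was -0.31 and for rpoC2 it was -0.29.

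The lines differed without DEX, over the DMSO arrays of 9, 12 and 24 h, and not in the members alone. Of all probe sets 3.99% were called, 2.03% as lower. Of the 43 plastid photosynthesis genes 12 were called lower in the VND7 line than in the VP16-GR line and none higher. Their median difference was -0.72, against -0.58 for the members. Without the 10 arrays 8 of these photosynthesis genes were called lower and 3 higher. Of the members 7 were lower in the VND7 line and none was higher. With the replicate number as a block 1 of them was called (rpoC2), with each array centred on the other organelle genes 2 (rpoC2 and rpl16), and with the compared groups alone in the fit 3 (rpoC2, rpl20 and rpl32). The 7 were rpoC2, rpl16, rpl20, rps4, rpl14, rps2 and rpl32. The largest difference was that of rpoC2, -2.01 ± 0.34 (SE, limma adjusted p = 1.3e-05). Its DMSO signals at 9 h were 6.27, 6.31 and 6.03 in the VND7 line and 8.80, 9.03 and 8.51 in the VP16-GR line. At 12 h they were 7.37, 6.81 and 7.41 against 8.29, 9.27 and 9.00, and at 24 h 5.87, 7.32 and 6.38 against 8.95, 9.68 and 6.36. The lines did not overlap at 9 and 12 h, and at 24 h 1 VP16-GR array lay as low as the VND7 arrays.

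For rpl16 the DMSO signals at 9 h were 10.14, 10.03 and 9.30 in the VND7 line and 11.50, 11.48 and 12.07 in the VP16-GR line. At 12 h they were 11.76, 10.60 and 10.48 against 12.04, 12.24 and 12.07, and at 24 h 6.30, 10.95 and 10.22 against 13.14, 12.50 and 9.38. The lines were apart at 9 and 12 h and overlapped at 24 h, with a difference of -1.85 ± 0.49. For rpl20 the signals at 9 h were 5.93, 6.71 and 6.79 against 8.55, 8.36 and 8.82. At 12 h they were 8.41, 6.62 and 6.45 against 8.47, 8.27 and 8.93, and at 24 h 5.45, 7.94 and 6.54 against 8.48, 9.48 and 5.77. Here 1 array of the VND7 line at 12 h reached the level of the other line, and the difference was -1.59 ± 0.40.

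The ribosomal genes rps4 and rps2 gave differences of -1.35 and -1.26. For rps4 the signals at 9 h were 11.85, 11.82 and 11.77 against 12.73, 12.45 and 12.89, at 12 h 11.93, 11.66 and 11.92 against 12.59, 12.74 and 13.16, and at 24 h 7.77, 12.21 and 11.19 against 13.12, 13.22 and 11.32. For rps2 they were 7.32, 8.07 and 7.36 against 8.66, 8.28 and 9.04 at 9 h, 8.11, 7.57 and 7.86 against 8.83, 8.61 and 8.83 at 12 h, and 5.05, 8.13 and 7.08 against 9.39, 9.59 and 6.66 at 24 h. Both genes were apart between the lines at 9 and 12 h. Both had their lowest value in the library labelled DMSO 24 h replicate 1 of the VND7 line, which was out of place.

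For rpl14, with a difference of -1.35, the signals were 10.19, 10.17 and 9.04 against 10.95, 10.70 and 11.67 at 9 h, 11.46, 10.69 and 10.45 against 11.36, 11.64 and 11.49 at 12 h, and 7.04, 10.87 and 10.24 against 12.43, 12.09 and 9.92 at 24 h. For rpl32, with a difference of -1.08, they were 11.55, 10.63 and 11.22 against 12.05, 11.71 and 11.84 at 9 h, 11.44, 11.48 and 10.90 against 11.92, 11.91 and 11.89 at 12 h, and 8.57, 11.34 and 11.08 against 12.38, 12.27 and 11.96 at 24 h. The VND7 line was below the other line at all 3 times for rpl32, and at 9 h for rpl14. Without the 10 arrays 3 of the 7 were called (rpoC2, rpl20 and rpl16), with 4.68% of all probe sets called, and the same number without DMSO 24 h replicate 1 of the VND7 line alone. The genes with the largest DEX change at 30 h were not among the 7: the line difference was 0.24 for rpl33.

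**Figure D5:**
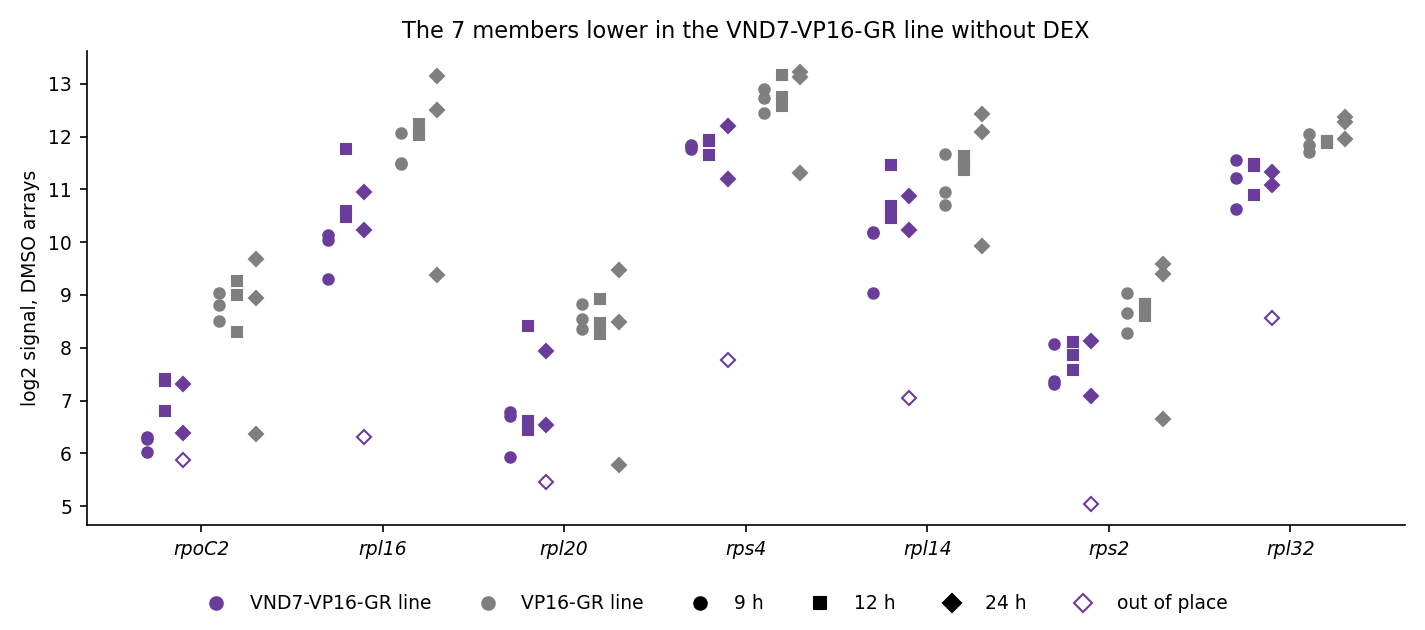
Log2 signal (vertical axis) of the 7 members called lower in the VND7-VP16-GR line (purple) than in the VP16-GR line (grey) without DEX. Points are single DMSO arrays at 9 h (circles), 12 h (squares) and 24 h (diamonds), and the open diamonds are the library out of place. For rpoC2 the purple points at 9 h lie at 6.03 to 6.31 and the grey ones at 8.51 to 9.03.

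The photosynthesis genes of the same genome were set beside the members, with no test of the difference. Of 43 plastid photosynthesis genes 29 fell at 30 h, none rose, and the median was -1.83, against -1.85 for the members. Among the members 13 of 26 were below that photosynthesis median. The photosynthesis genes reached further down, to -4.93 for psaA and -4.30 for psbC, which encode photosystem core proteins, while ndhF and psaJ had changes of 0.16 and -0.27. At 9 h 2 of the 43 rose and none fell, with ndhK, a subunit gene of the NDH complex, at 1.75. The next highest by the rule was atpI at 1.29, and psbC and psbZ were lowest at -1.95 and -1.73, all 3 uncalled with all arrays. Without the 10 arrays 3 of the 43 rose and 3 fell at 9 h, among them atpI, psbC and psbZ. In that fit 31.9% of all probe sets were called. With each array centred on the other organelle genes, 9 members were called at 30 h. They were 7 falls (matK, rps16, rpoC1, rpl33, rps18, rpl36 and rpl22) and 2 rises at the probe sets near the floor, rpoB and rps14. The median change of the members was -0.47 in that setting. Its centre took in the 10 mitochondrial respiration genes beside the 43, and their median change at 30 h was 0.92. It therefore does not compare the members with the photosynthesis genes alone.

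Of 10 measured mitochondrial respiration genes 6 rose at 3 h of DEX in the VND7 line, 8 at 9 h, 2 at 12 h and 4 at 30 h, with medians of 1.203, 1.69, 0.59 and 0.92. Of all probe sets 22.2% to 29.5% were called at those times. With all arrays in the fit no gene of this list was called at 1, 6, 24 and 48 h. There limma's unadjusted p was under 0.05 for 1, 3, 0 and 0 genes and the medians were -0.13, 0.76, 0.23 and -0.19. In the VP16-GR line none was called either (0, 0 and 1 with an unadjusted p under 0.05), with medians of -0.04, -0.04 and -0.17 at 9, 12 and 24 h. Without the 10 arrays 6 genes rose in the VND7 line at 6 h and 5 at 24 h, with medians of 1.10 and 1.02. In that fit 7 rose at 3 h, 8 at 9 h, 3 at 12 h and 4 at 30 h. From 3 to 30 h it called 26.2% to 31.9% of all probe sets. At 1 h, with a single DEX array left, the median was 0.87. At 9 h nad6 and nad5 had the largest rises, 2.75 and 2.31, and nad7 and nad2 the smallest changes, 0.11 and 0.68. At 30 h nad1 and nad4L rose by 1.88 and 1.79, and nad7 and nad2 had the smallest changes, 0.16 and 0.55. These comparisons share their arrays with those of the members.

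Nuclear genes for the partners of the plastid-encoded proteins were listed by locus from memory, and few had a probe set of 1 gene. Of 32 nuclear loci for plastid ribosomal proteins 8 were measured. Of these 5 fell at 3 h, 5 at 9 h and 8 at 30 h, with medians of -2.33, -3.06 and -4.39, at times when 27.8%, 29.5% and 28.0% of all probe sets were called. None was called at 1, 6, 12, 24 and 48 h (1 had an unadjusted limma p under 0.05 at 12 h and 0 at the others), where the medians were -0.10, -0.35, -2.00, -1.23 and -0.61. All 8 fell at 3, 6, 9, 12, 24 and 30 h once the 10 arrays were left out. The lowest changes of the 8 were -4.70 for AT4G17560 and -4.59 for AT5G47190 at 9 h, and -7.46 for AT4G01310 and -5.52 for AT4G17560 at 30 h. The changes nearest 0 were -1.34 for AT3G54210, which was not called, and -2.39 for AT5G65220 at 9 h, and -2.29 for AT3G54210 and -3.24 for AT3G13120 at 30 h. For the Clp protease 2 of 11 partners were measured, and CLPP4 fell at 30 h, with a change of -2.05. AT1G09130, the other of them, changed by -0.93 and was short of the minimum size. AT5G15700, the 1 of 9 loci for sigma factors and phage-type polymerases that was measured, changed by -0.30 at 30 h and was not called. None of 14 loci for proteins bound to the bacterial-type polymerase and none of 4 for partners of accD was measured.

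Markers of xylem and of photosynthetic tissue changed at 3 and 9 h as well as at 30 h. With all arrays no member was called from 3 to 12 h. The xylem marker mean was 12.45 to 12.57 in the 9 h DEX arrays and 10.91 to 11.60 in the 30 h DEX arrays. The member medians of these arrays were 10.09 to 10.61 and 7.65 to 8.38. A measure of RNA quality differed at 24 and 30 h. The part of the markers and of RNA quality in the result was not tested. The 4 measured xylem markers of 10 listed (GUT2, IRX15, IRX15-L and AT1G66810) rose at 3, 9 and 30 h, by 5.21 to 8.10 at 30 h, while 3 of them rose at 6 h, 3 at 12 h and 1 at 24 h. Both measured markers of photosynthetic tissue, PORB and LHCB4.1, fell at 3, 9 and 30 h, with changes of -7.07 and -4.39 at 30 h. Neither was called at 1, 6, 12, 24 or 48 h, and at 12 h their changes were -4.12 (limma adjusted p = 0.0624) and -2.01 (adjusted p = 0.147). Without the 10 arrays all 4 xylem markers rose at 6, 12 and 24 h, where 30.7%, 26.2% and 30.4% of all probe sets were called. Both markers of photosynthetic tissue fell at these times in that fit, with medians of -3.17, -3.07 and -6.07. Their mean in an array was 11.50 to 12.61 in the 23 DMSO arrays and 5.83 to 7.27 in the 5 DEX arrays of 24 and 30 h. Both root hair markers rose at 30 h, EXPA7 by 1.53 and EXPA18 by 2.05. One pair of actin control probe sets, 3' minus 5' end, gave 4.46 to 5.04 in the 23 DMSO arrays and 3.72 to 4.13 in the 5 DEX arrays. A second pair gave 1.05 to 1.39 and 1.13 to 1.40 and did not separate them. The first pair gave 4.36 to 4.48 in the 3 DMSO arrays out of place with low member medians, 6.69 to 7.56. In the 12 DEX arrays in place at 3 to 12 h it gave 4.14 to 4.88, with member medians of 9.69 to 10.61.

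The probe sets of genes with several copies gave a mixed picture at 30 h. Of the 7, those of rpl2, rpl23 and ycf1 fell, with changes of -1.64, -1.74 and -1.61, and 4 did not pass the test. For rpl2 the signals were 12.95, 13.13 and 12.59 with DMSO and 11.74, 10.77 and 11.26 with DEX, with no overlap. One rps12 probe set rose at 9 h, by 1.85 ± 0.61 (SE, limma adjusted p = 0.0108), while the second rps12 probe set was 1.08 higher without passing the test. Without DEX both rps12 probe sets were lower in the VND7 line, with differences of -1.98 and -2.20, as were rps7 at -2.05 and rpl23 at -1.32. These probe sets read several copies of a gene at once. The mitochondrial probe set of rps3 and rpl16 changed by 0.32 at 30 h and was not called.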

How the data were processed

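The deposited table holds log2 values of 69 ATH1 arrays, made by the authors with GCRMA, per the submitters' processing notes; its version is not given in the sources used here. Its lowest value was 2.14. From these values 22746 of 22810 probe sets were tested, after leaving out 64 controls. Probe sets were named through the platform annotation, updated by RefSeq (TAIR10.1). limma 3.58.1 in R 4.3.3 fitted 1 mean per group (23 groups of 3), with a mean-variance trend and Benjamini-Hochberg adjustment within each comparison, and was tested on simulated data. The labels call replicates biological. The members and lists were chosen with earlier results of these data known, as were the arrays out of place. Every member is named. Values of each array are given for the 5 members with the largest mean absolute moderated t in the VND7 line, for the leading member of each role, and for members called in the VP16-GR line or between lines; other arrays' values shown were chosen after they were seen. From comparison lists the 2 highest and 2 lowest genes are named. Other scalings, filters, fits and left-out arrays were tried. No sequences are shown.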

Additional observations from a re-analysis of the deposited data

How the results depend on the processing

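At 30 h the 18 calls, all falls, became 9 with arrays centred on the other organelle genes (7 falls and 2 rises). Leaving out 1 array gave 7 to 19. At 9 h, where the count was 0, array-median centring gave 8, all rises, quantile normalization 1, organelle centring 3, all falls, leaving out dim probe sets 2, the compared groups alone 5, and counting copies 1. Leaving out 1 array gave 0 to 1 there. At 3 h the count of 0 became 1 with array-median centring, with quantile normalization and with no fold minimum, and 0 to 1 without single arrays. At 6 h array-median centring gave 2. For the 9 h difference between lines (0) array-median centring gave 3 rises, organelle centring 1 fall, the compared groups alone 5 and counting copies 1. For the change from 9 to 30 h (0) these gave 5 with array-median centring, 2 without dim probe sets, 19 with the compared groups alone and 1 with copies, and 0 to 1 without single arrays. The average over times (1) became 0 with array-median centring, 3 with no fold minimum, and 1 to 3 without single arrays, 3 without DMSO 1 h replicate 2. The average difference between lines (0) became 2 rises with array-median centring (rpoC2 and rps15), 2 falls with organelle centring (rpl33 and rps18), and 0 to 1 without single arrays. The line difference without DEX (7) became 2 with organelle centring, 3 with the compared groups alone, 11 with copies, and 3 to 7 without single arrays. Leaving out the arrays out of place was an exclusion chosen after seeing the data. Counts were then 1 at 3 h, 2 at 6 h, 4 at 9 h, 2 at 12 h and 15 at 24 h. They were 21 for the change from 9 to 30 h, 6 for the average difference and 3 for the line difference. For the differences at 9, 12 and 24 h they were 1, 1 and 8. At 1 h that fit left a single DEX array, with a median change of -2.46. Shares of all probe sets called were counted only for the main fit and the fit without the 10 arrays. The other counts lack that reference. The cause of these changes in the counts was not tested. Which members were called, and in which direction, thus differed between the centrings at 9 h and for the differences between lines.

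Same-numbered replicates showed no consistent pairing. Of 33 correlations of their deviations 8 were over 0.1, and in 0 of 11 comparisons were all of them. This check cannot exclude pairing, since at 1 and 24 h the deviations took in arrays out of place. With the replicate block 1 member was called for the line difference and 17 at 30 h. Scoring every probe set of a gene separately gave no other value, since no member had more than 1. With 3 arrays per group precision is limited, and rps14 and rpoB were too dim to show a fall.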
